A study of Homo sapiens with 4 samples.

Results

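Long non-coding genes that lie away from protein-coding genes carried 4297 of the 45746 genomic regions (9.39%) that were enriched in both replicates of a PD-L1 chromatin immunoprecipitation (ChIP-seq). The cells were an untreated subclone, labelled wild type, of MDA-MB-231, a long-established human cell line from a triple-negative breast tumour. PD-L1 was precipitated with an HA antibody from Abcam, and the study holds 2 ChIP samples, numbered 1 and 2, and 2 inputs. The sources used here do not say how the cells came to carry the HA tag. No mock precipitation was analysed here, so recovery of chromatin without the target cannot be told apart from binding in any result below. Peaks of the 2 replicate lists on chromosomes 1 to 22 that overlapped by at least 1 bp were merged, and a merged region with at least 1 peak of each list is called shared. A shared region was taken when it overlapped a RefSeq gene of the biotype lncRNA or ncRNA and lay more than 1 kb from the span of every protein-coding gene. On these chromosomes replicate 1 had 166313 peaks and replicate 2 had 93106. Of the shared regions, 7320 overlapped a long non-coding gene, and 3023 of those were left out because a protein-coding gene lay within 1 kb. Of the 4297 regions, 4005 joined exactly 1 peak of each list, 3995 met a single non-coding gene and 302 met several, up to 5. No sequencing depth can be given, since only peak lists were used here, and every peak of replicate 2 has Merge in its name, a word that the sources used here do not explain. The study's design text describes peak calling per replicate, but whether the list of replicate 2 rests on that replicate alone is therefore unclear, and the 2 lists may not be fully independent.

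Long non-coding RNAs are transcripts without a long open reading frame. Some act in the nucleus as scaffolds or guides for chromatin proteins, some are the precursors of microRNAs or small nucleolar RNAs, and many have no known function. Such genes are often named for their position: LINC for intergenic, AS for antisense, DT for divergent from a coding gene, HG for the host of a small RNA, and LOC for a locus without a symbol of its own. PD-L1 is the ligand of the T-cell receptor PD-1 and is best known as a protein of the cell surface; the labels put no question beyond where in the genome it was found.

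Promoters are shown first, because a start site is the part of a gene where the regions were densest. The 4 sequences are RefSeq promoter windows of GRCh38.p14 (the build of the files, hg38), 250 bases before to 50 after a start, of the best-ranked regions that met such a window in a gene with a name other than LOC. They run 5′ to 3′ along the gene, and capitals mark matches to a small set of motifs given further on. LINC01415 (chr18:55780372-55780671, minus strand, GC content 72.3%) has TGATTCA, a match to the wide AP-1 pattern used here, and a GC box. Its window lies inside the outer span of the gene. LINC00673 (chr17:72592755-72593054, minus strand, 63.3% GC) has 2 GC boxes. LINC02376 (chr12:127284234-127284533, minus strand, 52.7% GC) has no match. LINC03139 (chr10:71877837-71878136, plus strand, 57.7% GC) has TGATTCA as well, with a CCAAT and a STAT match.
LINC01415: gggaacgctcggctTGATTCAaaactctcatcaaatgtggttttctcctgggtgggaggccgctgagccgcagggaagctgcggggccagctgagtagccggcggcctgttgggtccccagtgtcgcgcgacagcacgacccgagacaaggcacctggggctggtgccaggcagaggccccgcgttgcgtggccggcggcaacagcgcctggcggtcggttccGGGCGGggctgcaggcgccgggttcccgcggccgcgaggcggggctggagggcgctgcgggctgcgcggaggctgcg
LINC00673: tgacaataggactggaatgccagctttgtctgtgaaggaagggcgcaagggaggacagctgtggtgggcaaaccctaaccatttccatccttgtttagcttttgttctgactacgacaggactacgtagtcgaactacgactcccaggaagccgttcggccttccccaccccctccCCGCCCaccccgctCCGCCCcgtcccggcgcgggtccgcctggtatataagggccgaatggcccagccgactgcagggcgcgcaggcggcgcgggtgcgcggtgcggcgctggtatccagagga
LINC02376: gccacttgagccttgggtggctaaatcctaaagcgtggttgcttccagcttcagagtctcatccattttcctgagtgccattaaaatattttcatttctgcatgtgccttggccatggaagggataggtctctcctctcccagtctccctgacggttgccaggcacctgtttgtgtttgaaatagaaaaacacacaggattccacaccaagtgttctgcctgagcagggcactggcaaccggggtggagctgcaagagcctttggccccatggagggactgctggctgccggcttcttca
LINC03139: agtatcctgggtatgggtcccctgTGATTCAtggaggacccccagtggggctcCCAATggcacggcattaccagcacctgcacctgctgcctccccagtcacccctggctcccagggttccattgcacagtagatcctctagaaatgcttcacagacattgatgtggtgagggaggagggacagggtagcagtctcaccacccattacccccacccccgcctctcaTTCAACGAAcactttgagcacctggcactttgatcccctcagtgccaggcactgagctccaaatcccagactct

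The same regions had moderate enrichment. Fold enrichment here is the authors' peak-caller value for each peak, and the highest peak of a region stands for it in each replicate, as does −log10 q, the caller's corrected significance. These values serve only to describe and rank peaks within a list. The region at LINC01415 (1106 bp) had a fold of 3.55 in replicate 1 and 2.77 in replicate 2. The region at LINC00673 (2984 bp) had 3.60 in replicate 1 and 2.59 in replicate 2. At LINC02376 (1027 bp) the values were 3.82 in replicate 1 and 2.46 in replicate 2, and at LINC03139 (1460 bp) 3.64 and 2.49. They stood at places 42, 70, 93 and 103 among the 4297 regions by the mean of their ranks in the replicates.

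MicroRNA genes lay under 19 of the regions (0.442% of the 4297), which overlapped 23 of them in the RefSeq gene table. Of these 23 genes, 20 under 16 regions matched the 1461 hairpins of chromosomes 1 to 22 in the sequence table. The other 3 were MIR612 in NEAT1, MIR1207 in PVT1 and MIR124-3 in LOC124904952. The 1461 hairpins are not limited to sequence where a region could be taken. How many lie in such sequence was not counted, so whether microRNA genes were met more often than other sequence was not tested. The mature sequences of those with the best-known biology, chosen after the values were seen, are given with the seed (bases 2 to 8) in capitals, from RefSeq GRCh38.p14. miR-1 and miR-133a are muscle microRNAs, miR-143 and miR-145 mark smooth muscle and fibroblasts, miR-142 is a microRNA of blood cells, and miR-182 belongs to a cluster first known from sensory organs. All 32 seeds among the 32 matched mature sequences differed, so no seed was shared among them.
miR-1-3p: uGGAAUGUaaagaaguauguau
miR-133a-3p: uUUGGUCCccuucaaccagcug
miR-143-3p: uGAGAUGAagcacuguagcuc
miR-145-5p: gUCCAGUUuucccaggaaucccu
miR-142-3p: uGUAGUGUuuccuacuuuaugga
miR-182-5p: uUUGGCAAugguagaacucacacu
The hairpins of MIR1-1 and MIR133A2 lay in a single region of 42190 bp, with a fold of 3.36 in replicate 1 and 2.04 in replicate 2. MIR143 and MIR145, which are processed from CARMN, shared a region of 2126 bp (chr5:149428957-149431082) with 3.33 in replicate 1 and 2.09 in replicate 2. Over MIR142 a region of 1348 bp had 3.08 in replicate 1 and 2.05 in replicate 2, and over MIR182 a region of 4809 bp had 3.34 and 2.26. The other matched hairpins were MIR130A, MIR193B, MIR365B, MIR646, MIR3659, MIR3663, MIR3681, MIR4277, MIR4294, MIR4433A, MIR4433B, MIR4533, MIR4725 and MIR7159. Across the 16 regions, fold spanned 2.73 to 3.58 in replicate 1 and 2.02 to 2.34 in replicate 2. The highest in replicate 1 lay over MIR365B and MIR4725 and the highest in replicate 2 over MIR193B, so the order differed between the replicates.

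In strength the regions in long non-coding genes were like the other shared regions. Fold had a median of 3.14 in replicate 1 (5% to 95% of regions, 2.71 to 3.66) and 2.21 in replicate 2 (1.93 to 2.66). Shared regions within 1 kb of protein-coding genes had medians of 3.18 and 2.18 in replicates 1 and 2, and those near neither kind of gene 3.15 and 2.22. The differences between these medians were far smaller than the spread within each class. Median width was 1204 bp in long non-coding genes, 1445 bp near protein-coding genes and 1162 bp elsewhere. A −log10 q of 2 or more in both replicates was reached by 609 regions in long non-coding genes (14.2%) and by 15.1% of the other shared regions. The rank order of fold was nearly unrelated between the replicates, with a Spearman rho of 0.104 over the 4297 regions and 0.0939 over the other shared regions. These are descriptions across regions of the same 2 libraries, and a rank of a single region is accordingly loose.

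Shared regions took up 1.78% of the 350 Mb of long non-coding gene sequence more than 1 kb from coding genes, called available sequence here, against 4.30% of the 1210 Mb of protein-coding spans. Peaks of replicate 1 alone covered 3.62% of the available sequence and 7.65% of the coding spans. Peaks of replicate 2 alone covered 1.95% and 3.33%. Coverage was lower in the long non-coding sequence in both replicates. Of the 17068 peaks of replicate 1 that by themselves met the same gene rule, 25.7% met a peak of replicate 2, against 30.5% near coding genes. Of the 9813 such peaks of replicate 2, 45.0% met a peak of replicate 1, against 57.5% near coding genes. Most long non-coding peaks of either list were thus seen in that list alone.

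By gene, 2597 of the 13348 long non-coding genes with available sequence had at least 1 region, which is 19.5%. Protein-coding genes had a shared region somewhere in their span in 50.9%, with spans that are longer on the whole. A peak of replicate 1 lay in 5964 of the long non-coding genes (44.7%) and a peak of replicate 2 in 4669 (35.0%). Both lists had a peak in 3726 genes, and in 1211 of these (32.5%) no peaks of the 2 lists met in a qualifying region. Neither list had a peak in 6441 genes (48.3%). Of the genes with a region, 1751 had 1, 430 had 2 and 37 had 10 or more. None of the 9 genes of the ncRNA biotype with available sequence had a region.

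The chance of holding a region followed gene length. A region lay in 6.66% of genes with less than 2 kb of available sequence, in 12.8% with 2 to 5 kb, in 16.1% with 5 to 10 kb, in 21.0% with 10 to 20 kb, in 27.2% with 20 to 50 kb, in 31.1% with 50 to 100 kb and in 40.4% with 100 kb or more. Coverage ran the other way. Regions took up 4.68% of the available sequence of the shortest genes, 4.94% at 2 to 5 kb, 3.67% at 5 to 10 kb, 3.07% at 10 to 20 kb, 2.20% at 20 to 50 kb, 1.40% at 50 to 100 kb and 0.850% of the longest. A long gene was therefore more often met, while a given base of it was less often in a region.

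**Figure D1:**
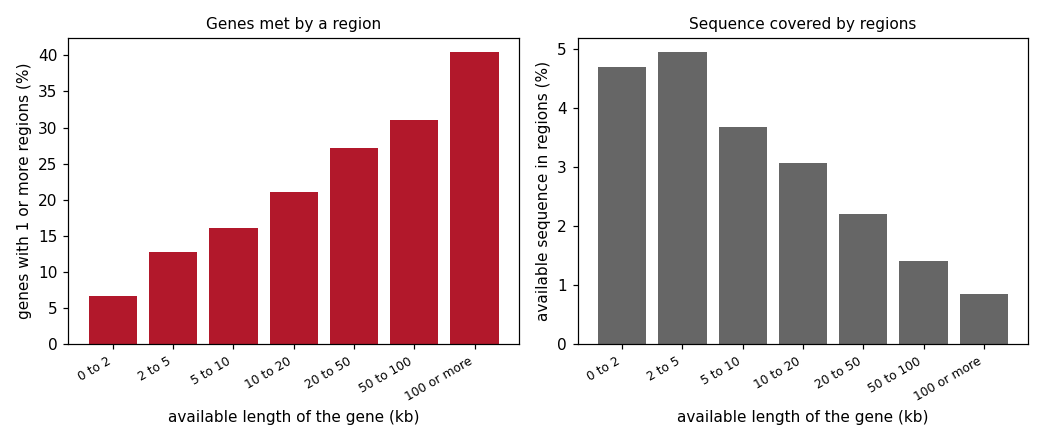
Left, the percent of long non-coding genes with 1 or more shared regions; right, the percent of their available sequence in shared regions; both by available length of the gene in kb. The share of genes climbs to 40.4% at 100 kb or more, where coverage is lowest, at 0.850%.

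Among the kinds of gene name, LINC genes held a region in 570 of 2199 (25.9%) and small-RNA hosts in 31 of 94 (33.0%). Antisense genes had 189 of 945 (20%), divergent genes 89 of 521 (17.1%) and LOC genes 1592 of 9027 (17.6%). The median available length was 14.0 kb for LINC genes and 13.7 kb for hosts, against 8.65 kb for LOC genes and 7.31 kb for divergent genes. LINC genes and hosts thus had larger shares and were longer than LOC and divergent genes. Genes with other names had 122 of 544 (22.4%), with a median of 9.43 kb, and those marked intronic or overlapping 4 of 16 (25%), with 9.2 kb. Antisense genes had a smaller share than either though their median was longer, at 10.1 kb, so the shares did not follow median length throughout. The part of length in these shares was not tested. Coverage followed another order, with 2.22% of the available sequence of genes with other names in regions, 2.10% of that of antisense genes, 2.04% of hosts, 1.69% of LINC genes, 1.67% of divergent genes, 1.55% of LOC genes and 0.436% of the intronic or overlapping ones.

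Gene ends were covered more densely than bodies. Windows of 1 kb on each side of both ends were in shared regions over 4.14% of their sequence, and bodies over 1.58%, a ratio of 2.62. The ratio was 2.39 for the peaks of replicate 1 alone and 2.04 for those of replicate 2 alone. It was above 1 on all 22 chromosomes, with a median of 2.39, a lowest value of 1.63 on chromosome 19 and a highest of 6.04 on chromosome 4. Much of this pooled ratio moved with gene length, since short genes, which were covered densely throughout, supply many of the ends and long genes most of the bodies. Within classes of gene length the ratio was 0.930 below 5 kb, 1.27 at 5 to 10 kb, 1.11 at 10 to 20 kb, 1.44 at 20 to 50 kb, 1.46 at 50 to 100 kb and 1.74 at 100 kb or more. Below 5 kb the ratio was 0.979 in replicate 1 and 1.01 in replicate 2, and at 100 kb or more it was 1.73 and 1.77.

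The strand was known, from the promoter table, for 8297 of the genes. Over all of them, coverage within 1 kb of the 5′ end was 6.65%, against 2.37% at 5 to 10 kb inside, a ratio of 2.81, and around the 3′ end 4.24% against 2.05%, a ratio of 2.07. The 3′ ratio was 1.69 in replicate 1 alone and 1.597 in replicate 2 alone. These pooled ratios again mix short and long genes. At 5 to 10 kb outside the genes, coverage was 3.73% at the 5′ end and 3.83% at the 3′ end. Against that outer flank the excess at the 3′ end was thus much smaller. In the 2803 genes of 20 kb or more, the sequence within 1 kb of the 5′ end was in shared regions over 4.34%, against 2.11% at 5 to 10 kb inside the gene, a ratio of 2.05. The peaks of replicate 1 alone gave a ratio of 2.14 and those of replicate 2 alone 2.08. Around the 3′ end the corresponding values were 2.29% and 1.82%, a ratio of 1.26, with 1.13 in replicate 1 and 1.19 in replicate 2. At 5 to 10 kb outside these genes, coverage was 2.25% at the 5′ end and 2.27% at the 3′ end. The 3′ end thus hardly differed from its outer flank. In the 8590 protein-coding genes of 20 kb or more, the 5′ end had 13.5% and the inside 4.50%, a ratio of 3.01, and the 3′ end 8.35% and 6.84%, a ratio of 1.22. In genes of this length both kinds thus had their densest coverage around the start. The replicates gave like ratios at the 5′ end of long non-coding genes but unlike ones at that of coding genes (4.02 in replicate 1 and 2.28 in replicate 2).

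**Figure D2:**
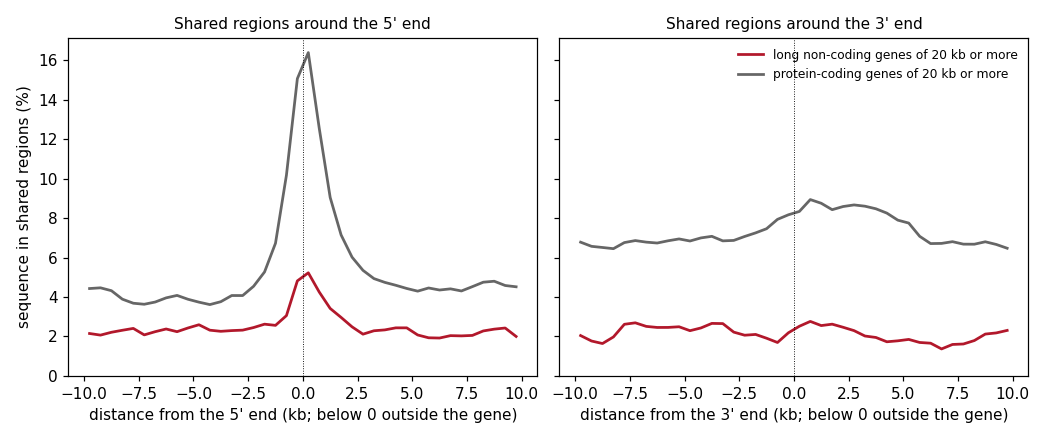
Percent of sequence in shared regions, in steps of 500 bp, by distance in kb from the 5′ end (left) and the 3′ end (right) of genes of 20 kb or more, for 2803 long non-coding and 8590 protein-coding genes of known strand. Within 1 kb of the 5′ end the mean is 4.34% for long non-coding and 13.5% for protein-coding genes, while the 3′ ends show no comparable peak.

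Of the 4297 regions, 1225 (28.5%, 95% Wilson interval 27.2 to 29.9%, for counting error only) lay within 1 kb of a gene end and 3072 in a body only. The interval takes regions as independent, though many share a gene, and it does not measure the spread between replicates. Among the peaks of replicate 1 alone the share was 20.03%, and among those of replicate 2 alone 18.9%. Counted by centre, 886 regions (20.6%) fell within 1 kb of an end. The part of such windows inside the genes holds 7.14% of the available length. The windows also reach outside the genes, to 43.6 Mb in all, and only 3979 regions had their centre in a gene. These shares are therefore not read against each other. Of the 3043 regions in a gene of known strand, 565 (18.6%) were at a 5′ end and 470 (15.4%) at a 3′ end. Regions at an end were wider, with a median of 1573 bp against 1099 bp in bodies, and a wide region meets a window more readily. Fold hardly differed and not in 1 direction: the median was 3.18 at ends and 3.12 in bodies in replicate 1, and 2.19 and 2.22 in replicate 2. Pooled over gene lengths, ends were set apart by the share of their sequence in regions, given above, rather than by fold. These counts mix short and long genes, as the pooled ratio above does. The ratio of coverage was 0.930 in genes below 5 kb, and in genes of 20 kb or more 10.9% of regions lay at an end. Fold was compared only among peaks that the caller reported.

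**Figure D3:**
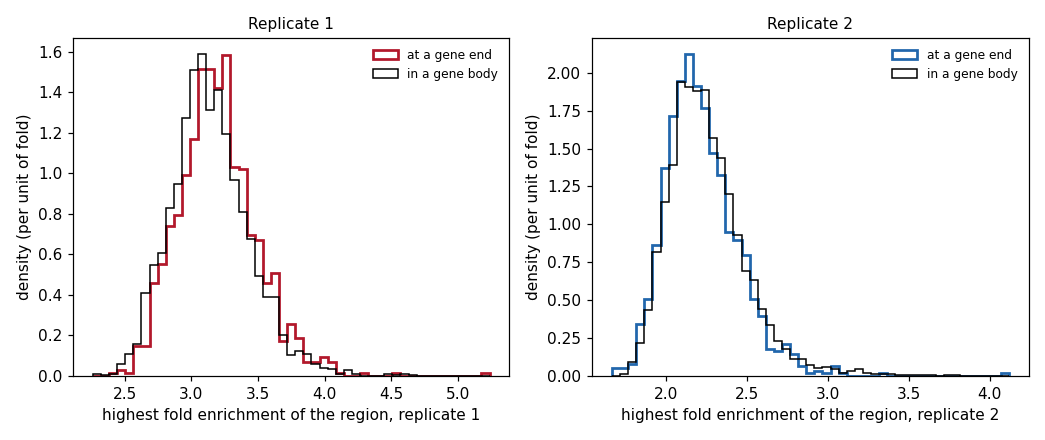
Distribution of the highest fold enrichment of each region (density per unit of fold), for the 1225 regions at a gene end and the 3072 in a body, in replicate 1 (left) and replicate 2 (right). The curves overlie each other, with medians of 3.18 and 3.12 in replicate 1 and 2.19 and 2.22 in replicate 2.

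The promoter table gave 7073 windows of long non-coding genes more than 1 kb from coding spans. A shared region overlapped 618 of them (8.74%), against 4463 of 21156 windows of protein-coding genes (21.1%). Windows with a region were richer in GC, with a median of 55.7% against 45.7% without. CpG-rich windows, with at least 55% GC and an observed-to-expected CpG of at least 0.65, held a region in 88 of 631 (13.9%), and the others in 8.23%. This difference came from 1 list: a peak of replicate 1 met 39.0% of CpG-rich windows and 18.8% of the others, while a peak of replicate 2 met 9.03% and 8.91%. CpG-rich starts were thus met more often by replicate 1, and at nearly the same rate as other starts by replicate 2.

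The motifs searched, on both strands of each window, were the GC box GGGCGG, the TATA box TATAAA, the CCAAT box CCAAT, the E-box CACGTG, AP-1 TGANTCA, STAT TTCNNNGAA, CRE TGACGTCA, ETS CCGGAAG and an NRF1 motif. N is any base, so the AP-1 pattern is wider than the usual sites TGACTCA and TGAGTCA. It also takes TGAATCA and TGATTCA, the form at LINC01415 and LINC03139. The AP-1 shares below are for this wider pattern, and the usual sites were not counted apart. The TATA pattern is instead a single form. Other TATA-like sequences, such as TATATAAG in the window of LINC00673, were not counted. A GC box was in 29.8% of windows with a region, in 13.7% of those without and in 45.0% of all 33725 promoters. Within CpG-rich windows the shares were 71.6% with and 68.0% without a region. A TATA box was in 8.58% with a region, 19.5% without and 11.6% of all promoters. For AP-1 the shares were 10.2% with, 12.3% without and 7.67% of all, and for STAT 8.74%, 10.7% and 7.77%. The E-box was in 8.09% with, 4.34% without and 7.18% of all, and ETS in 6.47%, 3.64% and 10.3%. Over all windows the GC box, the E-box and the ETS motif were more common where a region lay, and the TATA box less common. Windows outside the CpG-rich class also differed in GC, with medians of 54% with and 44.7% without a region. Motif shares in those windows were not counted apart, and the part of base composition in these differences was not tested. Within CpG-rich windows, of which only 88 held a region, the TATA box was in 3.41% with a region and 2.03% without. There the E-box was in 12.5% and 9.02% and ETS in 17.0% and 14.9%. The lower share of the TATA box was thus not seen there, but these shares rest on few windows and no order is read from them. A CCAAT box was in 33.7% with, 37.2% without and 34.4% of all, CRE in 0.162%, 0.790% and 1.87%, and the NRF1 motif in 1.94%, 1.15% and 5.79%.

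Chromosome 20 stood apart. It carried 379 of the regions, 62.5 per Mb of available sequence, and 45.5% of its 400 long non-coding genes had one. Regions covered 12.3% of its available sequence, and peaks of replicate 1 and replicate 2 alone 16.2% and 8.06%. Chromosomes 10 and 17 followed with 28.9 and 27.8 regions per Mb. The lowest were chromosomes 21 and 4, with 3.13 and 3.16. Coverage of long non-coding sequence ran with that of protein-coding spans across the 22 chromosomes (Spearman rho 0.946), and coverage by replicate 1 with that by replicate 2 (rho 0.919). Both are descriptions of chromosomes within the same libraries. Chromosome copy number was not analysed here, and its part in these differences was not tested.

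**Figure D4:**
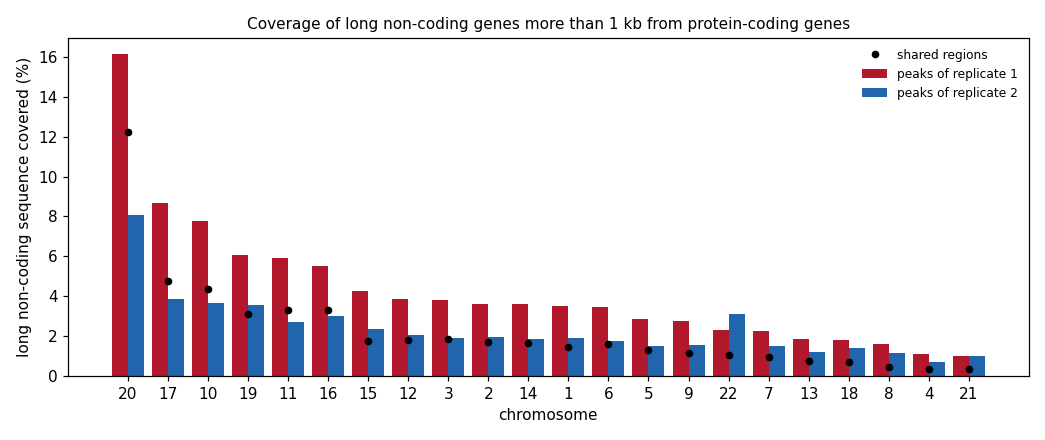
Percent of available long non-coding sequence in peaks of replicate 1 and replicate 2 (bars) and in shared regions (points) by chromosome, ordered by replicate 1. Chromosome 20 is highest in all 3 measures, with 16.2%, 8.06% and 12.3%.

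The widest regions were on chromosome 20 as well. Of the 85 regions of 5 kb or more, 27 lay there and 9 on chromosome 16. The widest (chr20:62528910-62571099) spanned 42190 bp over CRMA, LOC105376995 and MIR1-1HG, the host of the muscle microRNAs miR-1 and miR-133a. It was a single peak in replicate 1, whereas 14 peaks of replicate 2 covered 12697 bp of it. The next were 15531 bp at LOC124904952, 14459 bp at NOL4L-DT, 13794 bp at LINC00659 and 13002 bp at LINC02970, each a single peak of replicate 1 joined with 2 or 3 peaks of replicate 2. Their folds were modest, from 2.99 to 3.50 in replicate 1 and from 1.81 to 2.04 in replicate 2 over the 5. Width in these cases came from the list of replicate 1.

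Genes covered over most of their length were also mainly on this chromosome. Among genes of 10 kb or more, regions covered all 20.3 kb of MIR1-1HG (100%) and 95.4% of the 12.3 kb of PELATON, a transcript known from macrophages of atherosclerotic plaques. LINC01270 followed with 75.9% of 22.2 kb in 5 regions and LOC105372711 with 75.8% of 10.7 kb. Only LOC100507560, with 72.6% of 10.5 kb, was on another chromosome, chromosome 12. LINC01270 had folds of 2.57 to 3.37 in replicate 1 and of 1.81 to 1.91 in replicate 2, where the median over all 4297 regions was 2.21.

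The genes with the most regions were long. PITX1-AS1, antisense to the limb homeobox gene PITX1, had 27 over 298 kb of available sequence on chromosome 5, which covered 17.2% of it. Fold in its regions ran from 2.82 to 3.69 in replicate 1 and from 1.99 to 2.55 in replicate 2. LOC105376360 on chromosome 10 had 26 over 429 kb (9.21% covered). LINC01250 on chromosome 2 had 19 over 231 kb (11.5%), with 1 at its 5′ end. MIR646HG on chromosome 20 had 18 over 184 kb (19.5%). ZMIZ1-AS1 on chromosome 10, antisense to the transcriptional coregulator ZMIZ1, had 18 in 124 kb and the densest cover of the 5 (42.6%). Over their whole spans these genes held in replicate 1 alone 76, 73, 47, 41 and 35 peaks in the order given, and in replicate 2 alone 35, 48, 28, 27 and 27. Except for that 1 region of LINC01250, the regions taken in all 5 genes were in the bodies, away from the outer ends. Only 297.591 of the 311.407 kb of PITX1-AS1 and 428.954 of the 432.07 kb of LOC105376360 were available. No region could be taken in the rest, so the rule itself may have emptied an end of these genes.

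**Figure D5:**
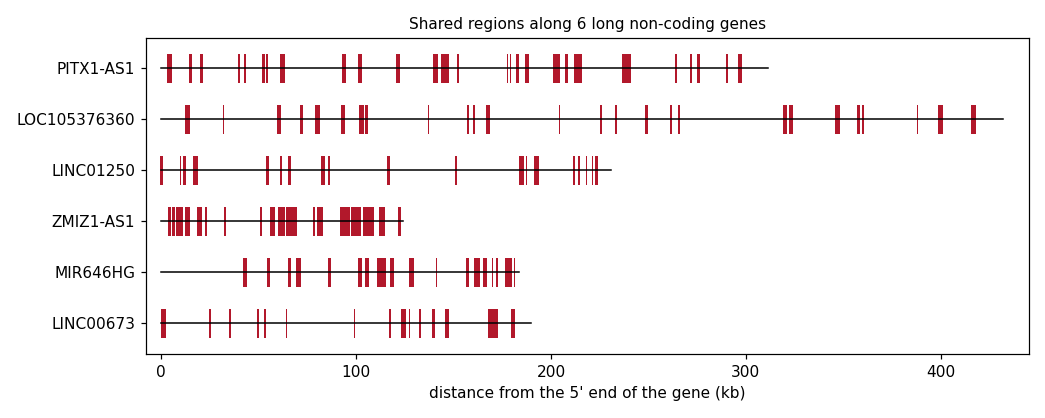
Shared regions (red) along the 5 genes with the most regions and LINC00673, by distance from the 5′ end in kb. Regions are spread through the bodies, most densely in ZMIZ1-AS1, where they cover 42.6% of the gene.

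The best-ranked region (chr5:142180976-142181806, 831 bp) lay in the body of LOC107986455, with a fold of 4.07 in replicate 1 and 2.77 in replicate 2. It was followed by regions in LOC124902216 on chromosome 9 (3.79 and 3.12) and at the 5′ end of LOC107984790 on chromosome 15 (4.03 and 2.75). Among genes with a name, THBS2-AS1, antisense to the matrix glycoprotein gene THBS2, had 3.75 in replicate 1 and 3.06 in replicate 2 at its 5′ end, and TACR1-AS1, antisense to a tachykinin receptor gene, had 3.66 and 3.58 in its body. LOC107986428, LOC124906300, LOC105375199, LOC105375653 and LOC105369753 completed the first 10, with folds of 3.76 to 4.04 in replicate 1 and 2.73 to 2.81 in replicate 2. Of the 10, 3 lay at a gene end. The 10 best at an end further included the region shared by ERCC6L2-AS1 and LOC107987103 (4.01 and 2.61), LOC105370686, LOC124904875, LOC124903903, LOC105370088, LOC105377939 and LOC105371082. The last lay 3678 bp from SOCS1, which encodes an inhibitor of cytokine signalling, with 3.84 in replicate 1 and 2.58 in replicate 2.

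Genes of known function were described through 5 lists. Over all 13348 genes, 19.5% had a region, the median available length was 9.35 kb and 1.67% of the available sequence summed over genes was covered. A list for chromatin regulation or nuclear structure held 17 genes, and the role of each was not checked here. Of these, 8 had a region, and the list had a median of 22.7 kb and 4.71% covered. NEAT1, the scaffold of paraspeckles, had 2 regions over 23.7% of its 22.7 kb, of 9660 bp (3.16 in replicate 1 and 2.11 in replicate 2) and of 5015 bp (3.24 and 2.21), 1 at each end of the gene. HOTAIR, transcribed from the HOXC cluster and known for its link to Polycomb complexes, had 1 region in its body (3.22 and 2.24). LINC-PINT, induced by p53, had 10 regions with folds of 2.67 to 3.36 in replicate 1 and of 2.00 to 2.56 in replicate 2. LINC00299 had 14, with 2.75 to 3.63 and 2.06 to 2.86. Its best-ranked region lay 613484 bp from the nearest coding gene, ID2. DLEU1, from the interval often deleted in chronic lymphocytic leukaemia, had 2, FENDRR had 4 and TRERNA1 had 1. MALAT1, an abundant RNA of nuclear speckles, had 1 peak in replicate 1 and none in replicate 2.

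Of 42 cancer-linked genes, 16 had a region, with a median of 11.7 kb and 2.44% covered. PVT1, the long gene beside MYC, had 16 regions over 8.65% of its 307 kb, with folds of 2.66 to 3.58 in replicate 1 and of 1.95 to 2.67 in replicate 2. CASC11, on the other side of MYC, had 1 (3.34 and 2.77), and CASC8 1 (3.60 and 2.25). LINC00673 had 15 regions over 12.9% of its 189 kb, and its best was the one at the 5′ end shown above (3.60 and 2.59). Its neighbour LINC00511 had 3, with 2.86 to 3.38 in replicate 1 and 2.41 to 2.58 in replicate 2. LUCAT1, a stress-induced RNA also on the immune list, had 1 (3.22 and 2.59). MEG3, SCHLAP1, CASC15, CASC2, SOX2-OT, HOTAIR, NEAT1, MIR100HG, SAMMSON and LINC00261 completed the 16, with 1 to 4 regions each.

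Of 98 hosts of small RNAs, 31 had a region, with a median of 12.7 kb and 2.00% covered. The best-ranked were MIR4527HG, with 4 regions up to 3.85 in replicate 1 and 2.58 in replicate 2, MIR924HG (3.27 and 2.71), MIR2052HG (3.18 and 3.49), MIR4290HG (3.37 and 2.35), MIR646HG and MIR3667HG. MIR924HG is 545 kb long and had only that 1 region, whereas MIR646HG had 18 in 184 kb.

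Of 17 genes from imprinted domains, 2 had a region, with a median of 5.93 kb and 1.95% covered. MEG3, the maternally expressed RNA of chromosome 14, had 4 regions over 33.4% of its 34.9 kb, with folds of 3.004 to 3.22 in replicate 1 and of 2.14 to 2.39 in replicate 2. DIO3OS, opposite the deiodinase gene DIO3 in the same domain, had 1 at its 3′ end (3.40 and 2.19). MEG8, also from that domain, had 9 peaks in replicate 1 and 4 in replicate 2 over its whole span of 109 kb but no region that met the rule, and SNHG14 of the Prader-Willi domain had 1 and 6 over 596 kb, also with none. In 11 of the 17 neither list had a peak, against 48.3% of all 13348 genes. Most of the 11 were neighbours in the Prader-Willi domain, several of them inside the span of SNHG14, so they are not separate cases.

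Of 19 immune genes, 2 had a region, LUCAT1 and MIR3142HG (3.07 in replicate 1 and 2.33 in replicate 2 at its 3′ end, in the host of miR-146a). The list had a median of 8.17 kb and 0.641% covered. However, 8 of the 19 lay in a stretch of 4.98 Mb on chromosome 6 (chr6:28506966-33488464), across the major histocompatibility complex, in which neither list used here had a peak although 171 protein-coding genes lie wholly inside it. Of the other 11, the same 2 had a region. There were 11 such peak-free stretches of 1 Mb or more with at least 20 protein-coding genes each, and they held 183 of the 13348 long non-coding genes. Outside them the share of genes with a region was 19.7%. Peaks on alternate contigs of the build numbered 24 in the list of replicate 1 and 3 in that of replicate 2, so the peaks were called on a genome with alternate copies of some loci. Whether reads could be placed in these stretches was not tested, and the absence of peaks there is not read as a lack of enrichment.

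The distance of 1 kb from protein-coding genes set no visible break. The nearest regions inside the limit were in LOC105371634, 1002 bp from FAM163A, in LOC124902369, 1003 bp from PFKFB3, and in LINC00304, 1007 bp from ACSF3. The nearest left out lay at 998, 997 and 993 bp. The 48 regions at 1001 to 1500 bp had median folds of 3.13 in replicate 1 and 2.20 in replicate 2, and the 49 left out at 500 to 1000 bp had 3.18 and 2.18.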

How the data were processed

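The deposited files used here were 1 list of broad peaks for each ChIP replicate. The submitters' processing notes name Bowtie2 2.2.9, MACS2 2.1.1 and hg38 without giving them a role or an order, and the sources used here state no caller settings. For each peak the authors deposited the caller's fold enrichment, a ratio, in column 7, its −log10 p-value in column 8 and its −log10 q-value in column 9; the score in column 5 of the deposited lists was not used. Inputs entered only through the caller, and the depth of the libraries is unknown.

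Regions, genes and shares were computed with Python 3.11.15, numpy 2.4.6, pandas 2.3.3 and scipy 1.17.1, and drawn with matplotlib 3.10.9; interval steps were tested on simulated data. Gene spans were those of RefSeq for GRCh38.p14, and strand and promoters from its promoter table, which covers 8297 of the 13348 genes with available sequence. A shared region is a union of peaks, so its covered length includes sequence in a peak of 1 list. Exons, introns and region sequence were not analysed here. Genes named are those of the 10 best regions, the 10 best at an end, the 5 widest, the 5 genes with the most regions and the 5 with the largest covered share, up to 6 per list and the regions nearest the 1 kb limit; others were chosen after their values were seen. The regions and the gene lists were chosen with earlier results of these data known. There is 1 group of samples, so no test between samples was made, and regions are not replicates.

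The alternatives were other peak thresholds, overlaps, merging distances, distances from coding genes and window sizes, and each replicate alone.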

Additional observations from a re-analysis of the deposited data

How the results depend on the processing

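No paired analysis was possible because the study has 1 ChIP group and no result comes from a test between groups. The number of regions (4297) fell to 607 where only peaks with a −log10 q of 2 or more entered, to 885 with the 50% of peaks of higher fold, to 2598 with equal numbers of peaks per list and to 1582 with a reciprocal overlap of 50%; with 1 replicate alone it was 9813 to 17068. The share at a gene end (28.5%) was 31.8% where −log10 q was 2 or more, 31.2% with equal numbers, 23.4% with the reciprocal overlap, 32.3% with peaks merged within 1 kb, 29.97% at 0 kb and 27.2% at 5 kb from coding genes, 22.8% by region centre, 24.3% with windows of 500 bp, 49.3% with windows of 5 kb and 18.9% to 20.03% with 1 replicate alone. The ratio of coverage at ends to bodies (2.62) was 3.24 where −log10 q was 2 or more, 2.21 with the reciprocal overlap, 2.93 at 0 kb and 2.04 to 2.39 with 1 replicate alone. Among genes of 20 kb or more, an alternative chosen after seeing the data, the share was 10.9% and the ratio 1.997; leaving out chromosome 20, also chosen then, left 3918 regions. No alternative turned the ratio below 1, although it was 0.930 in genes under 5 kb. Depth, copy number and recovery by the antibody without its target limit all of these values, and 2 lists give no measure of spread beyond their own difference. The causes of these shifts were not tested.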

Other observations

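A few well-known loci lay in long stretches without a peak. CDKN2B-AS1 (ANRIL), which runs through the CDKN2A and CDKN2B tumour suppressor locus on chromosome 9, had 123 kb of available sequence. MIR31HG, in the same peak-free stretch, had 102 kb. Neither gene had a peak in either list used here. The nearest peaks stood 5.57 Mb apart, with 26 protein-coding genes wholly between them. CYTOR on chromosome 2 and PWRN4 in the Prader-Willi domain also lay in peak-free stretches, of 1.17 Mb and 723 kb. Copy number and the placing of reads were not analysed here. On chromosome X, which was kept out of the counts above, 25 regions were shared and 1 lay in long non-coding genes only.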
